A study of Taxus x media with 6 samples.

Results

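Opposed components are groups of assembled sequences, grouped by their identifiers, in which at least 1 gene was higher in female trees and at least 1 other gene was higher in male trees. The study sequenced poly(A) RNA of Taxus × media twigs from 3 female and 3 male trees; this yew is a hybrid in which a tree bears either seed or pollen cones. Per the labels, the trees were independent of each other, untreated as far as stated, and grown under the same light, temperature and humidity. Each library is taken as 1 tree. The labels give no age, clone or parentage of the trees, so a difference between the sexes cannot be told apart from a difference in parentage.

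Levels are in TPM, a unit in which reads are divided by transcript length and each library is brought to the same total. A component is a connected part of the assembly, written as the gene identifier without its final gene number. A gene was taken as female-type when all 3 female trees had at least 5 TPM and the lowest of them was at least 2 times the highest male tree, and as male-type in the reverse case. Of 43846 listed genes, 545 (1.24%) were female-type and 849 (1.94%) male-type. They fell in 521 and 796 of the 24671 components, and 42 components held both types. These 42 hold 94 member genes, 48 female-type and 46 male-type. The rule also leaves out the 100 most abundant genes of all, but none of them was a member. The female and male values of these same libraries chose the members, so every contrast between the sexes below is a description without a test, except where a tree was left out of the choice.

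As background, a plant gene often has close relatives in the same genome: duplicates made within a species, copies inherited from the parents of a hybrid, and alleles of 1 locus. Such copies can be expressed in different organs, conditions or individuals, so that the family keeps its expression while the copy in use changes. In plants with separate sexes, copies on the parts of the genome tied to sex can also diverge between females and males. An assembly made from RNA alone places such copies, and also fragments or splice forms of 1 gene, in 1 component under different gene numbers. Which of these the members are, if any, cannot be told here: the files pair no identifier with a gene name, sequence or position. For the same reason no role can be given to any member, the taxoid pathway named in the title of the series cannot be looked up among them, and the twig origin cannot be checked against marker genes. No sequence is printed for the same reason.

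Between 38652 and 41505 genes were above 0 in a library. Female tree 2 stood apart from the others, with 1215 genes of at least 1 TPM that were listed at 0 in all 5 other libraries, against 3 to 12 such genes in each of those. None of these genes can be a member, since a member needs 5 TPM in every tree of a sex. TPM keeps no read depth, so the number of reads behind a value, a listed 0 included, is unknown.

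Most opposed components were simple pairs. In 34 of the 42 there was 1 female-type and 1 male-type gene, 4 had 2 female-type and 1 male-type, 2 had 1 female-type and 2 male-type, and 2 had 2 of each. They came mostly from large components: the median was 5 listed genes (range 2 to 11), against 3 (range 2 to 13) over all 9053 components of 2 or more listed genes. Of components with 2 listed genes 4 of 4416 (0.0906%) were opposed, with 3 listed genes 5 of 2045 (0.244%), with 4 listed genes 5 of 1201 (0.416%), with 5 listed genes 14 of 641 (2.18%), and with 6 or more 14 of 750 (1.87%). A component with more genes has more chances to hold both types, but whether this accounts for these shares was not tested. Over all components of 2 or more listed genes, 0.464% were opposed. For comparison, 18 components held 2 or more female-type genes and no male-type gene, and 46 held 2 or more male-type genes and no female-type gene.

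Female-type members had a median of 13.1 TPM in female trees (quartiles 8.53 and 27.6, highest 1066) and 0.987 TPM in male trees. Male-type members had a median of 17.6 TPM in male trees (quartiles 10.4 and 37.7, highest 229) and 2.64 TPM in female trees. Members were thus mostly of modest level, with 31 of 48 female-type and 25 of 46 male-type genes under 20 TPM in their own sex, and 3 of each type at 100 TPM or more. All female-type genes, members included, had a median of 11.8 TPM in female trees, and all male-type genes one of 12.0 TPM in male trees.

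Members were listed at 0 throughout the other sex about as often as all genes of their type. Of the 48 female-type members 8 (16.7%) were listed at 0 in all 3 male libraries, 15 in 1 or 2 of them, and 25 were above 0 in all. Of the 46 male-type members 7 (15.2%) were listed at 0 in all 3 female libraries, 4 in 1 or 2 of them, and 35 were above 0 in all. Among all 545 female-type and 849 male-type genes, 17.6% and 16.3% were listed at 0 throughout the other sex. No component had both its types listed at 0 throughout the other sex: in 6 the female-type side was at 0 in all male trees, in 6 others the male-type side was at 0 in all female trees, and in 30 neither was.

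Where both sexes had some expression, the mean in the own sex was a median of 8.75 times that in the other sex for 40 female-type members (range 2.49 to 689) and 5.40 times for 39 male-type members (range 2.37 to 179). At the edge of the rule, the smallest ratio of the lowest own-sex tree to the highest other-sex tree was 2.12 among female-type and 2.01 among male-type members. The largest ratios just outside it, among genes in components that held the opposite type, were 1.94 and 1.90. The lowest own-sex tree stood at 5.08 TPM in the weakest female-type and 5.02 TPM in the weakest male-type member, and at 4.96 and 4.90 TPM in the nearest genes outside. The member count is therefore a matter of where the limits are set: 8 female-type and 15 male-type members had a ratio under 2.5, and 12 and 7 had a lowest tree under 6 TPM.

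The components are described next in the order of the mean summed TPM of their members. In the component in place 1, which has only 2 listed genes, the female-type gene TRINITY_DN28128_c0_g1 stood at 923, 832 and 1443 TPM in female trees 1 to 3 and at 43.7, 27.2 and 37.4 TPM in male trees 1 to 3. Its male-type neighbour TRINITY_DN28128_c0_g2 stood at 4.55, 1.78 and 3.47 TPM in female trees and at 14.4, 21.6 and 9.47 TPM in male trees. Both genes separate the sexes, but the female-type gene was the more abundant of the pair in all 6 trees. The directions were of very different size: the female-type gene was 1030 TPM higher on average in female trees, the male-type gene 11.9 TPM higher in male trees. The sum of the component followed the larger one, at 1069 ± 330 TPM for female and 51.2 ± 5.97 TPM for male trees (SD, n = 3), a ratio of 20.9 and the largest of the 42.

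In place 2 came a component of 8 listed genes with 2 members of each type. Its leading female-type gene, TRINITY_DN28557_c0_g1, stood at 914, 13.8 and 445 TPM in female trees 1 to 3 and at 0.130, 1.67 and 0.970 TPM in male trees. Female tree 2 was far below the other female trees, by 66.3-fold against the highest, yet above every male tree. The leading male-type gene, TRINITY_DN28557_c0_g4, was even within each sex, at 7.89, 6.47 and 7.74 TPM in female and 36.6, 37.5 and 40.4 TPM in male trees. A second pair in the component was divided completely in the listed values. Its female-type gene stood at 5.08, 5.88 and 9.68 TPM in female trees and was listed at 0 in all male trees, and its male-type gene at 10.6, 12.0 and 8.58 TPM in male trees and was listed at 0 in all female trees. The summed TPM overlapped between the sexes, because female tree 2 (46.8 TPM) lay below the male trees (52.5 to 54.0 TPM) while female trees 1 and 3 (972 and 486 TPM) lay far above. The ratio of mean sums was 9.44 with all trees, 5.01 without female tree 1 and 13.7 without female tree 2.

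**Figure D1:**
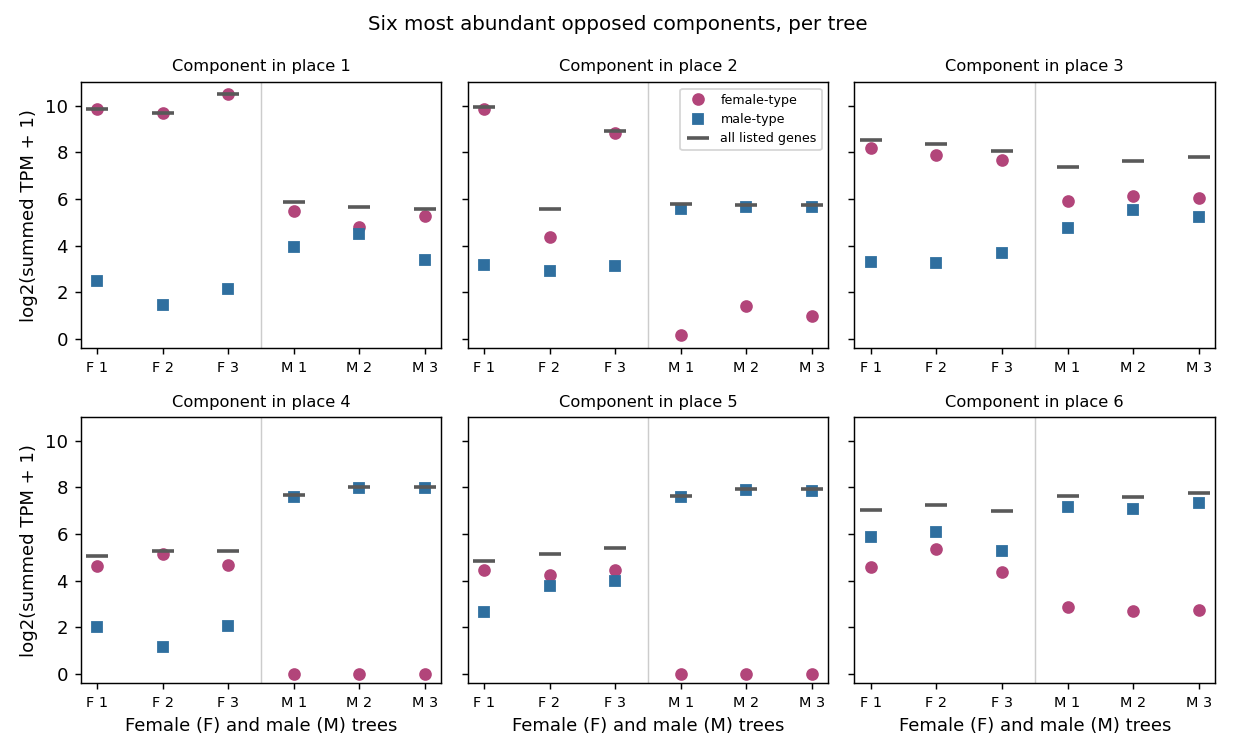
Log2(summed TPM + 1) of the female-type genes (circles), the male-type genes (squares) and all listed genes (bars) of the 6 opposed components with the most abundant members, 1 panel per component and 1 column per tree (female trees F 1 to F 3, male trees M 1 to M 3). In places 1 and 3 the circles stay above the squares in every tree, in places 2, 4 and 5 the order crosses between the sexes, in place 6 the squares stay above the circles, and female tree 2 stands low in place 2.

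The component in place 3 resembled the first in that its order did not cross. Its female-type gene stood at 290, 235 and 200 TPM in female and 59.0, 68.7 and 64.8 TPM in male trees. The male-type gene stood at 8.98, 8.64 and 11.8 TPM in female and 26.3, 45.4 and 36.8 TPM in male trees. The female-type share of the members' TPM, 96.0% ± 1.33 in female trees, was 64.4% ± 4.51 in male trees (SD, n = 3), so the female-type gene exceeded the male-type gene in both sexes. The remaining listed gene, no member, was the most abundant of the 3 in male trees, at 77.3, 85.8 and 120 TPM. With it counted in, the sum was 320 ± 51.1 TPM for female and 195 ± 29.8 TPM for male trees (SD, n = 3), without overlap.

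Places 4 and 5 showed the opposite imbalance, with the male-type side the stronger. In place 4 the male-type gene stood at 3.10, 1.22 and 3.14 TPM in female and 191, 249 and 247 TPM in male trees. Its female-type partner stood at 24.0, 34.5 and 24.3 TPM in female trees and was listed at 0 in all male trees. The leading gene therefore differed between the sexes, but the component as a whole was 6.72 times higher in male trees (238 ± 31.8 TPM) than in female trees (35.5 ± 3.05 TPM; SD, n = 3). In place 5 one male-type gene stood at 0.760, 0.610 and 1.46 TPM in female and 148, 177 and 181 TPM in male trees, and another at 4.63, 12.0 and 13.4 TPM in female and 44.8, 60.7 and 51.3 TPM in male trees. The female-type gene there stood at 20.96, 18.1 and 21 TPM in female trees and was listed at 0 in all male trees. The sum was 6.61 times higher in male trees (228 ± 24.0 TPM against 34.5 ± 7.0 TPM; SD, n = 3).

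A weaker form was seen in place 6, where the male-type gene exceeded the female-type gene in every tree. It stood at 58.1, 67.3 and 37.7 TPM in female and 141, 135 and 162 TPM in male trees. The female-type gene stood at 23.4, 40.2 and 19.5 TPM in female and 6.37, 5.46 and 5.74 TPM in male trees. The female-type share of the members' TPM was 33.4% ± 4.38 for female and 3.88% ± 0.451 for male trees (SD, n = 3).

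In place 7 the directions differed by 1.55-fold in size and the sums overlapped. Its female-type gene stood at 76.7, 76.1 and 58.2 TPM in female and 18.4, 20.4 and 27.5 TPM in male trees. The male-type gene stood at 8.69, 2.89 and 3.00 TPM in female and 25.2, 26.7 and 55.8 TPM in male trees, with male tree 3 above the others. The female-type side was 48.2 TPM higher in female trees and the male-type side 31.0 TPM higher in male trees. Summed TPM was 75.6 ± 12.5 for female and 60.0 ± 22.1 for male trees (SD, n = 3), and male tree 3 at 85.5 TPM lay just under female tree 1 at 85.6 TPM.

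In place 8 the members were a minor part of a very abundant component, 5.15% of its TPM. Its female-type gene stood at 11.5, 13.6 and 16.04 TPM in female trees and was listed at 0 in all male trees. The male-type gene stood at 30.2, 12.9 and 14.4 TPM in female and 78.5, 92.6 and 74.0 TPM in male trees. The other listed genes, one of them among the 100 most abundant of the series, summed to between 815 and 1618 TPM in each tree and set the sum, which was 1192 ± 422 TPM for female and 1033 ± 116 TPM for male trees (SD, n = 3), with overlap.

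The order of the types crossed in place 9. Its male-type gene stood at 3.52, 6.71 and 5.67 TPM in female and 67.5, 87.5 and 89.6 TPM in male trees. The female-type gene, at 13.4, 12.3 and 12.9 TPM in female and 0.860, 0.870 and 2.79 TPM in male trees, was nearly even among the female trees. The sum was 3.06 times higher in male trees.

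Place 10 was close to an even exchange. Its 2 female-type genes together stood at 44.8, 45.4 and 47.0 TPM in female and 0, 1.86 and 1.76 TPM in male trees. The male-type gene stood at 2.17, 4.99 and 7.43 TPM in female and 22.1, 56.7 and 52.8 TPM in male trees, with male tree 1 lowest among the males. Between the sexes the female-type side differed by 44.5 TPM and the male-type side by 39.0 TPM, and the sum overlapped, at 61.4 ± 5.31 TPM for female and 70.0 ± 26.03 TPM for male trees (SD, n = 3).

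In place 11 the members held 11.9% of the component. Its 2 female-type genes together stood at 51.4, 51.5 and 73.1 TPM in female and 17.9, 15.5 and 20.2 TPM in male trees. The male-type gene, lower than these in every tree, stood at 2.11, 3.01 and 2.37 TPM in female and 10.1, 9.0 and 8.29 TPM in male trees. The sum (559 ± 305 TPM in female, 183 ± 24.5 TPM in male trees; SD, n = 3) came mostly from the other genes, which reached 841 TPM in female tree 2. Its ratio of 3.05 was 2.13 without that tree. Place 12 had 1 female-type gene at 13.2, 11.9 and 15.0 TPM in female and 1.98, 4.57 and 2.75 TPM in male trees. Its 2 male-type genes together stood at 16.5, 14.9 and 13.4 TPM in female and 56.6, 47.7 and 62.3 TPM in male trees. In female trees the 2 sides were nearly level, and the sum was 2.10 times higher in male trees.

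Over all 42 components, the female-type genes held a median of 85.2% of the members' TPM in female trees (range 27.1 to 100) and 2.84% in male trees (range 0 to 72.6). By tree, the medians were 91.3%, 81.3% and 82.4% in female trees 1 to 3 and 1.66%, 3.79% and 4.19% in male trees 1 to 3. The shift between the sexes had a median of 67.6 percentage points and ran from 25.4 to 98.5. Within a sex the share varied far less, with a median SD of 4.45 percentage points over female and 1.95 over male trees (n = 3 each). The rule requires such a shift, and its size moves with the limits set: at 3-fold the medians were 93.4% for female and 1.82% for male trees, and at 1.5-fold 77.9% and 8.79%.

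Not every opposed component exchanged its leading gene. In 31 of the 42 (73.8%) the female-type genes summed to more than the male-type genes in all 3 female trees and to less in all 3 male trees. In 4 the female-type side was the larger in all 6 trees, in 3 the male-type side, and in 4 the order varied among trees of 1 sex. The share passed 90% in female and stayed under 10% in male trees in 11 components. Counting every listed gene, the gene of highest mean TPM differed between the sexes in 32 (76.2%), against 22% of all components of 2 or more listed genes, a comparison in which the rule itself took part. In 27 it was a female-type member in female trees and a male-type member in male trees, in 7 the same gene, no member, led in both sexes, and in 1 a different gene that was no member led in each sex.

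**Figure D2:**
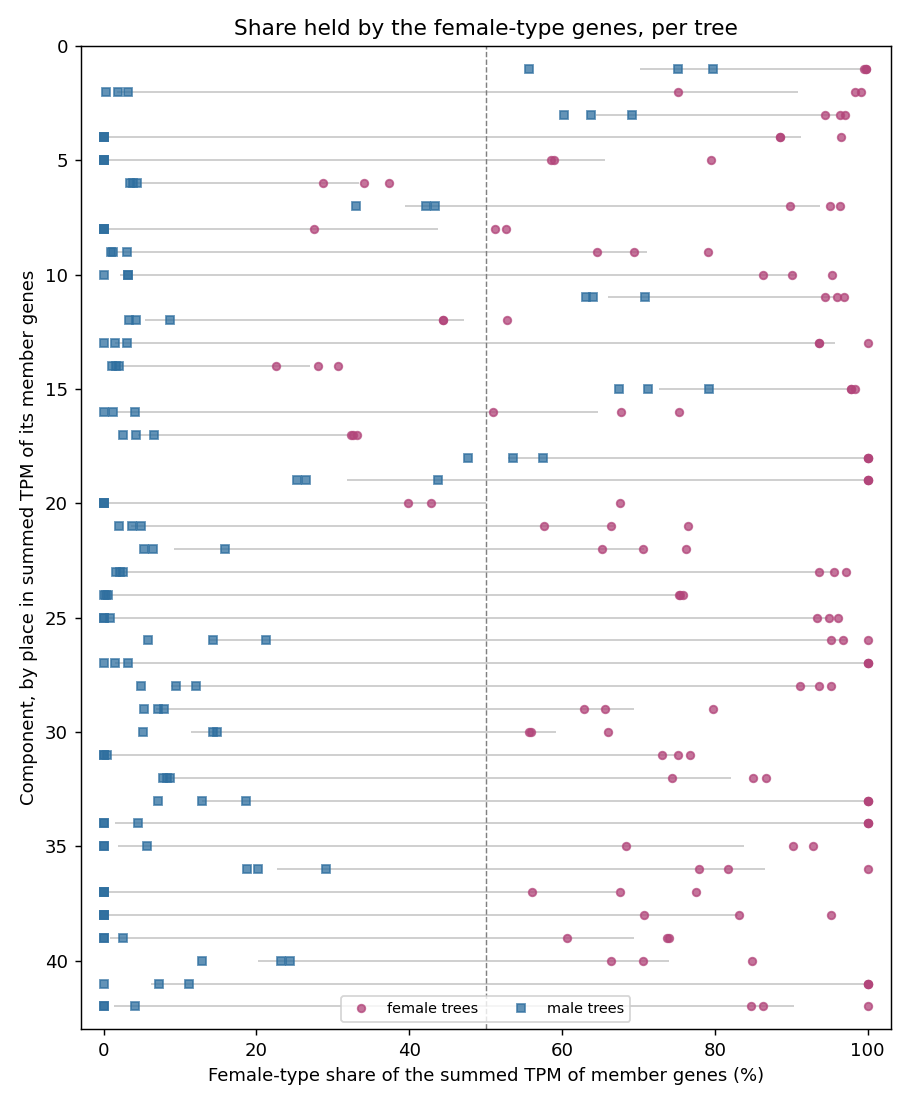
Female-type share (%) of the summed TPM of member genes in each tree, for the 42 opposed components from place 1 (most abundant members) down to place 42. Circles are the 3 female and squares the 3 male trees, the grey line joins the mean of each sex, and the dashed line marks equal amounts of both types; the median component goes from 85.2% in female to 2.84% in male trees, while places 1, 3, 11 and 15 stay above the dashed line in all trees.

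The summed TPM showed how far the total of a component differed between the sexes. Sums were taken over all listed genes of a component, members and others. They therefore do not show by themselves whether the 2 types offset each other, for which sums over members alone are given further below. Of the 42, the mean sum was higher in female trees in 18 and in male trees in 24. On the log2(TPM + 1) scale the median difference of female from male sums was -0.12, next to -0.10 over all 9053 components of 2 or more listed genes. This middle value is not stable in sign or size: it was 0.07 with a floor of 10 TPM, -0.25 without female tree 2 and -0.03 without male tree 2. The spread around it was wide: the quartiles were -0.52 and 0.44 and the ends -2.71 and 4.32. Without regard to sign the median difference was 0.50, against 0.34 over all components of 2 or more listed genes. The rule asks for genes that differ strongly, so nothing is read from this. Components with 2 or more female-type and no male-type gene had a median difference of 1.37 (n = 18). Those with 2 or more male-type and no female-type gene had one of -2.01 (n = 46). In both of these the rule also set the direction.

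In 26 of the 42 the mean sums of the sexes lay within 1.5-fold of each other, and in 11 within 1.2-fold, where 67% and 39.7% of all components of 2 or more listed genes were. In 12 (28.6%) they were at least 2-fold apart, 6 higher in female and 6 in male trees. Of all components of 2 or more listed genes 16.9% were so far apart, 7.25% higher in female and 9.65% in male trees. The sexes overlapped in 23 and did not in 19 (45.2%), of which 8 were higher in female and 11 in male trees. Without overlap over components of 2 or more listed genes were 31.4% (12.4% higher in female and 19% in male trees). Summed over members alone, the mean sums lay within 1.5-fold in 16 of the 42 and within 1.2-fold in 12. They were then at least 2-fold apart in 19, and the sexes overlapped in 18. The member rule used the same libraries and contrast and asks for genes that differ strongly, so nothing is read from these differences in share. When the rule was applied without female tree 2, 20 of 59 components were at least 2-fold apart. Without overlap were then 38 of 59, and 32 of 59 without female tree 1 and 33 of 57 without male tree 1. With a tree left out, an absence of overlap is easier to reach for any component. No share over all components is given for that case, so these counts are not set against the shares above.

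**Figure D3:**
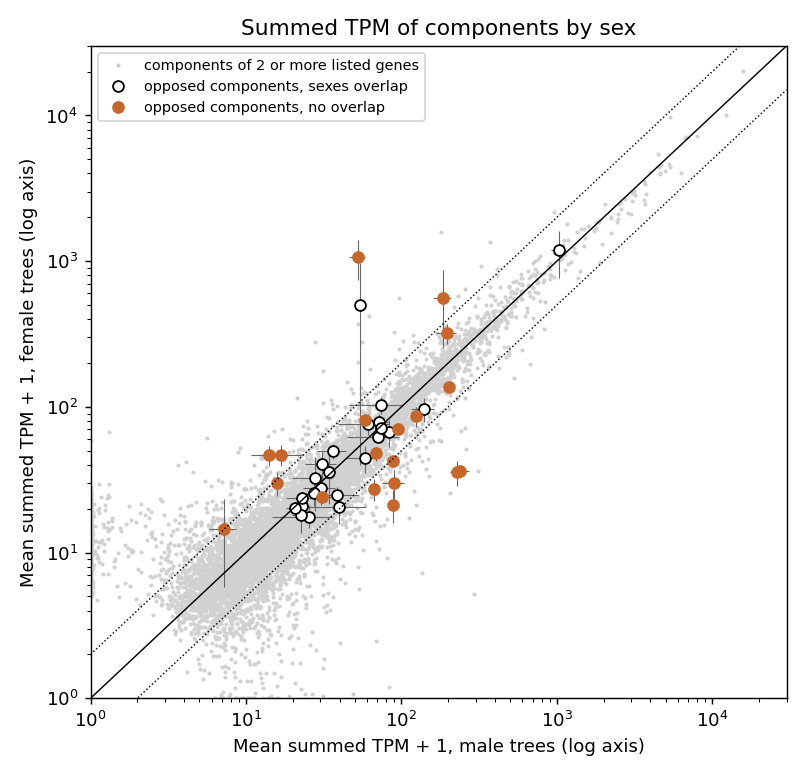
Mean summed TPM + 1 in female trees against male trees on log axes, for all components of 2 or more listed genes (grey) and the 42 opposed components (open where the sexes overlap, filled where they do not; bars are SD over 3 trees). The solid line marks equal sums and the dotted lines a 2-fold difference; 30 opposed components lie within the dotted lines, and the 2 farthest above them are places 1 and 2.

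The amounts by which the types differed were compared within each component, as the female minus male mean TPM of the female-type side and the male minus female mean TPM of the male-type side. These had medians of 13.1 and 16.2 TPM. The larger was on the female-type side in 20 and on the male-type side in 22 components. They were within 1.2-fold of each other in 10, within 1.5-fold in 14 and within 2-fold in 18 components, while the median ratio of the larger to the smaller was 2.55 and the highest 86.6, in place 1. In 34 components the whole sum was higher in the sex of the larger side, and in 8 the other listed genes turned it the other way.

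Components with the more abundant members had the less even sums. Places follow the TPM of members alone, so this does not hold for abundance of the whole component. The component with the highest mean sum, place 8 at 1113 TPM, had a ratio of 1.15. In places 1 to 21, whose members summed to 25.4 TPM or more on average over the trees, the ratio of the larger to the smaller mean sum had a median of 1.65, the sums overlapped in 7 of 21 components and were at least 2-fold apart in 10, and the leading type crossed in 10. In places 22 to 42, whose members summed to 9.37 to 25.3 TPM, the median ratio was 1.31, the sums overlapped in 16 of 21 and were 2-fold apart in 2, and the leading type crossed in all 21. This split was made after the values were seen. Members must reach 5 TPM in one sex at every place, so the rule may bear on this difference, which was not tested.

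Among components with less abundant members, place 36 showed an even exchange and place 25 an uneven one. Both were chosen for display after their values were seen. In place 36, a component of 5 listed genes, the female-type gene stood at 9.68, 8.43 and 8.43 TPM in female and 2.33, 2.05 and 2.23 TPM in male trees. The male-type gene stood at 0, 2.39 and 1.89 TPM in female and 10.0, 8.12 and 5.42 TPM in male trees. The sides differed by 6.64 and 6.43 TPM, and the sum was 19.1 ± 1.06 TPM for female and 19.6 ± 2.45 TPM for male trees (SD, n = 3), a ratio of 1.03 and the smallest of the 42. In place 25, with no other listed gene, the female-type gene stood at 24.3, 34.0 and 24.3 TPM in female and 0, 0 and 0.120 TPM in male trees. Its partner stood at 1.28, 1.38 and 1.71 TPM in female and 14.1, 15.0 and 15.0 TPM in male trees. The exchange there was nearly complete in share, but the sum was 1.97 times higher in female trees (29.0 ± 5.57 against 14.8 ± 0.580 TPM; SD, n = 3).

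**Figure D4:**
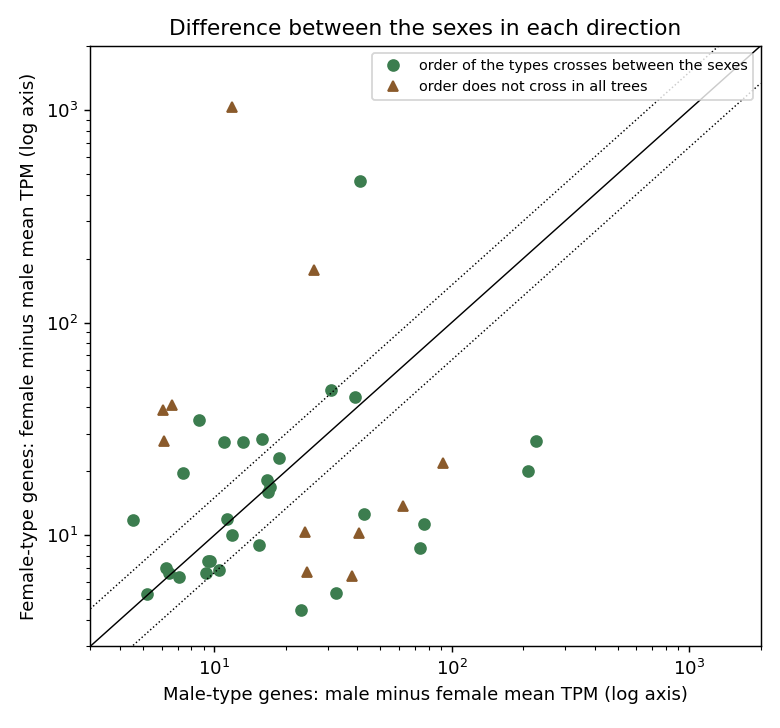
For each of the 42 opposed components, the female minus male mean TPM of its female-type genes against the male minus female mean TPM of its male-type genes, on log axes. The solid line marks equal amounts and the dotted lines 1.5-fold; 14 components lie within the dotted lines, and circles are the 31 in which the leading type crosses between the sexes in all trees, triangles the other 11.

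The other listed genes of these components had a median difference between the sexes close to that of all genes, with a wider spread. There were 121 of them, with a median of 2.94 TPM and 78 under 5 TPM, and 5 components had none. Their median difference was -0.09 on the log2(TPM + 1) scale, next to -0.09 for all 43846 genes, but with quartiles of -0.97 and 0.98 against -0.55 and 0.30. All female trees lay above all male trees in 26 (21.5%), where 12.3% of all genes did, and all male above all female trees in 35 (28.9%), where 17.8% of all genes did. Nothing is read from the median or from these shares. The rule used this contrast and took both types out of this group, and genes of 1 component can share reads. Members held a median of 63.4% of the TPM of their component (range 5.15 to 100).

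Trees of a sex agreed to different degrees. The coefficient of variation over the trees of the own sex had a median of 23.9% in female-type and 15.5% in male-type members, against 22.6% and 19.5% over all genes of each type. In 19 members, 9 female-type and 10 male-type, the highest own-sex tree was at least 2 times the lowest. The widest among female-type members was the leading gene in place 2, at 66.3-fold, and the widest among male-type members a gene in place 33, which stood at 6.59, 24.4 and 15.4 TPM in male trees and was listed at 0 in all female trees. The component sums had median coefficients of variation of 17.1% over female and 14.0% over male trees.

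Each tree was then left out in turn, the members were chosen on the other 5, and the left-out tree was read. It took no part in the choice, although the trees it is compared with did. Between 47 and 59 components were chosen in this way. The type of the left-out tree's own sex was the larger in 46 of 59, 44 of 59 and 46 of 56 components for female trees 1 to 3, and in 48 of 57, 45 of 52 and 42 of 47 for male trees 1 to 3. Over the 6 trees that is 271 of 330, or 82.1%. This measure also counts a component whose order never crosses, in the trees of the sex of its larger side. In 252 of 330 (76.4%) at least 1 member of each type lay on its side of the rule in the left-out tree. For every tree these are the 42 reported components, because passing on 5 trees and in the left-out one is passing on all 6. The share, from 71.2% (female trees 1 and 2) to 89.4% (male tree 3), thus varies only with the number chosen. Of the member genes so chosen, 643 of 756 (85.1%) lay on their side of the 5 TPM and 2-fold rule in the left-out tree, with a range over trees from 80.9% (female tree 2) to 91.7% (male tree 3). Over all genes called female-type or male-type on 5 trees, members included, the share was 74.2%, with a range from 62.8% (male tree 1) to 80.8% (male tree 2). The genes on their side were the same 1394 for every tree, so this share too varies only with the number chosen. The member share was the higher in each of the 6 trees. As chosen on all trees, members also had higher own-sex medians than all genes of their type. These were 13.1 against 11.8 TPM for female-type and 17.6 against 12.0 TPM for male-type genes. Whether level bears on the higher share was not tested, so nothing is read from it. The member and all-gene shares mix genes that should be high in the left-out tree with genes that should be low. Members of the left-out tree's own type held in 78.4% (71.8%, 74.3% and 83.9% for female trees 1 to 3 and 69.1%, 88.1% and 87.0% for male trees 1 to 3) and members of the opposite type in 91.9%. For all genes so chosen these shares were 67.1% and 83.0%. The chosen components are largely the same ones from tree to tree, so these shares describe the 6 trees and are not independent trials.

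**Figure D5:**
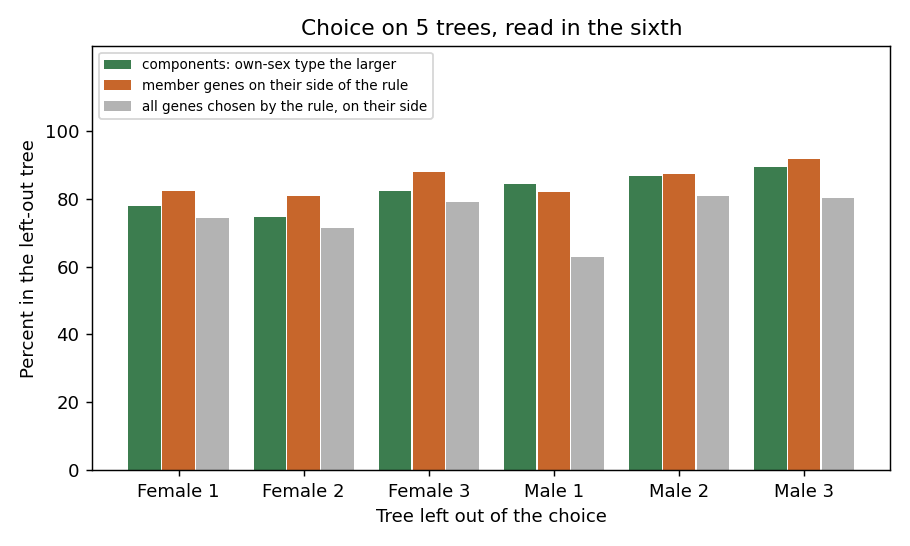
Percent of components (green), of member genes (orange) and of all genes chosen by the rule (grey) that lie on their side in a tree left out of the choice, by the tree left out. Components count when the type of that tree's sex is the larger, and genes when the tree meets the 5 TPM and 2-fold rule on their side; the green bars run from 74.6% to 89.4%, and the orange bar is above the grey one for each tree.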

How the data were processed

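Each of the 6 libraries came with 1 table of values per gene, deposited by the authors. No label or header names the unit, which was taken as TPM from the deposited values: they are not whole numbers, and each library sums to between 997065 and 998035. Identifiers follow the style of the Trinity assembler, per the file rows. For the quantifier and the assembly, software and settings were not given in the sources used here. Every listed gene reaches at least 2.01 TPM in some library, so weaker genes are not in the tables. Reads shared by similar genes of a component may have been divided between them, which bears on every split described here, and how this was done is not given.

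The tables were joined by identifier with pandas 2.3.3 (Python 3.11.15), and components, types and sums were computed as described in the text. Differences are on the log2(TPM + 1) scale where said. No p-value is given, since the choice of members used the contrast between the sexes. The members, lists and limits were chosen with earlier results of these data known. The rule was tested on simulated data. The simulated pairs were placed in genes more abundant than most members, so members of lower level were not covered. The 4 identifiers printed are the most abundant member of each type in the 2 components whose members have the highest mean sum, and components to place 12 are described in that order. Places 25, 33 and 36 were added after their values were seen. Alternatives were 1.5-fold and 3-fold limits, no floor and a floor of 10 TPM, TMM-type scaling (trimming 30% of ratios and 5% of levels per end), quantile normalization, components by DN number alone, the 100 most abundant genes kept or dropped first, pseudocounts of 0.1 and 0.01, sums over members alone, and each library left out. Replicate numbers 1 to 3 count trees within a sex.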

Additional observations from a re-analysis of the deposited data

How the results depend on the processing

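The number of opposed components depended on the limits and little on the scaling. It was 71 with 165 members (83 female-type, 82 male-type) at 1.5-fold, 17 with 39 members (19 and 20) at 3-fold, 151 with 402 members (194 and 208) without a floor, and 16 with 34 members (16 and 18) with a floor of 10 TPM. Which components were chosen did change with the scaling. Only 35 of the 42 were kept among the 40 components found after TMM-type scaling. Only 29 of the 42 were kept among the 37 found after quantile normalization. These scalings moved the median gene up by 0.10 and 0.09 on the log2 scale, female minus male. Sums without overlap numbered 33 of 71, 7 of 17, 73 of 151 and 7 of 16 under those 4 limits in turn. Sums at least 2-fold apart numbered 7 of 17 at 3-fold, 40 of 151 without a floor and 5 of 16 with a floor of 10 TPM. Over members alone they numbered 19 of 42. With all listed genes summed, the shares over all components of 2 or more listed genes were 31.4% and 16.9%. Nothing is read from the differences, since the rule used this contrast. The median log2 difference of sums was 0.068 with a floor of 10 TPM, -0.018 after TMM-type scaling and -0.040 over members alone, so its sign carries no weight. The median female-type share in female trees was 77.9% at 1.5-fold, 93.4% at 3-fold and 90.9% without a floor. In male trees it was 8.79% at 1.5-fold and 4.25% with components by DN number. The share of left-out trees in which the own type was the larger was 89.7% at 3-fold. What causes them was not tested, beyond the change in the components chosen.

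Choosing the members again without each library gave 47 to 59 components, 108 to 136 members (54 to 71 female-type, 54 to 68 male-type), 13 to 20 sums 2-fold apart, 24 to 38 sums without overlap, median log2 differences of -0.252 to -0.027 and median shares of 80.3 to 86.5% in female and 2.87 to 5.42% in male trees. For the same 42 components, an alternative chosen after seeing the data, these ranges were 12 to 13, 20 to 27 and -0.220 to -0.044 (-0.212 without female tree 2). No share over all components is given with a library left out, so these counts stand without a background. The left-out-tree reading was not repeated with a further library removed. No paired analysis was possible because no result comes from a test and the numbers only count trees. Unknown depth limits what a listed 0 shows.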
